A study of Homo sapiens with 24 samples.

Results

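The 30 genes described here make cholesterol or move it through the cell: 22 encode enzymes and partners of the mevalonate and sterol pathway, and 8 act in sterol uptake, release from lysosomes, esterification or transport. They were taken as a list of symbols and matched to the Ensembl gene identifiers of the count files, which hold 58735 genes. All 30 matched 1 identifier each, and all 30 passed the filter on low counts. The cells were HT-144, an established human melanoma line derived from a metastasis, transfected for 3 days in RPMI medium with insulin, transferrin and selenium. The SREBF1-targeting groups were siSREBF1, a pool of small interfering RNAs at 50 nM, and ASO-SREBF1-S1 and ASO-SREBF1-S4, each an antisense oligonucleotide (ASO) at 5 nM. The control groups were siNegative, a scrambled siRNA at 50 nM, ASO-Neg, a control ASO at 5 nM, and mock, which the labels describe no further. Each group was 1 library of polyadenylated RNA, sequenced on 4 lanes that were summed, and libraries held 12916478 to 47900277 gene counts. The series title gives the purpose as the effects of depleting SREBF1 with an ASO.

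Cholesterol is built from acetyl-CoA through mevalonate to farnesyl diphosphate, which is joined to squalene, closed to lanosterol and then trimmed to cholesterol. Cells also take sterol up in lipoproteins and pass it between membranes with dedicated carriers. Genes of both routes are known targets of SREBP-2, encoded by SREBF2, while SREBP-1, encoded by SREBF1, is best known for genes of fatty acid synthesis. Both factors bind sterol regulatory elements, often beside a CCAAT box, which the factor NF-Y binds.

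SREBF1 (ENSG00000072310) stood at 54.9, 76.9 and 70.3 CPM in siSREBF1, ASO-SREBF1-S1 and ASO-SREBF1-S4, against 249, 217 and 232 CPM in siNegative, ASO-Neg and mock. CPM here is the read count scaled to the size of each library, with TMM factors between libraries. Each SREBF1-targeting library was below every control, with SREBF1 at 22.0%, 35.4% and 32.4% of the matched non-targeting reagent. SREBF1 fell by 1.78 on the log2 scale (SE 0.12, edgeR quasi-likelihood adjusted p = 0.00164). With reagent chemistry as a term the ratio was -1.82 and did not pass (edgeR adjusted p = 0.112). SREBF2 averaged 507 ± 2.71 CPM in SREBF1-targeting and 586 ± 17.2 CPM in control libraries (SD, n = 3 each), and did not pass (log2 ratio -0.21, edgeR adjusted p = 0.322). For SREBF2, too, each SREBF1-targeting library was below every control. In siSREBF1, ASO-SREBF1-S1 and ASO-SREBF1-S4 it was at 88.8%, 86.0% and 86.0% of the matched non-targeting reagent. All 8 melanoma markers looked up were above 1 CPM in every library. Their summed level was 4123 to 5587 CPM in SREBF1-targeting and 4795 to 6281 CPM in control libraries. None of 4 immune, 1 of 3 endothelial, 1 of 4 keratinocyte and 4 of 5 fibroblast markers reached 1 CPM in every library. Summed levels in SREBF1-targeting and control libraries were 0.311 to 0.86 and 0.392 to 0.647 CPM (immune), 1.62 to 3.13 and 1.41 to 2.02 CPM (endothelial), 22.7 to 29.0 and 22.7 to 24.1 CPM (keratinocyte), and 634 to 936 and 668 to 882 CPM (fibroblast). Among the fibroblast markers, COL1A2 was at 558 to 874 CPM over the libraries and LUM at 50.5 to 84.5 CPM. PDGFRB was at 4.32 to 8.66 CPM, DCN at 1.29 to 2.83 CPM and COL1A1 at 0.55 to 1.6 CPM. MS4A1 and KRT1 were at 0 in every library. The part of these shifts in the results below was not tested, and in bulk RNA fewer expressing cells and less RNA per cell cannot be told apart.

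Of the 30 genes, 26 matched a RefSeq promoter window of GRCh38.p14, and ACAT2, FDFT1, SCARB1 and SQLE did not. A window ran from 250 bases before to 50 after the start annotated there, which need not be the start in the gene coordinates. The IDI1 window, chr10:1056655-1056954 on the - strand, lies upstream of the gene's listed start at 1049119. The GGPS1 window also lies wholly upstream of its gene. The windows of MVK, CYP51A1, DHCR7, CYB5R3 and NPC2 lie inside the coordinates of their genes. Searched on both strands, with overlaps allowed, CCAAT was present in 18 of the 26 (69.2%), against 34.6% of all 35116 windows and 37.0% of the 11114 windows of genes tested here. The GC box GGGCGG was present in 23 (88.5%), against 45.0% of all windows and 69.4% of windows of tested genes. The E-box CACGTG was present in 2, LSS and SC5D (7.69%), against 7.26% and 10.1%. The strict sterol element TCACNCCAC was in 0 of 26, and in 1.13% of all windows and 1.08% of windows of tested genes, which says only that these letters are not in these windows. The 5 windows below are those of the 3 genes past the size rule used further on (TM7SF2, ERG28 and EBP) and of FDPS and LSS, which lay below every control. They are written 5′ to 3′ on the gene's strand, with CCAAT or its reverse complement in capitals.
TM7SF2 (chr11:65111622-65111921, + strand): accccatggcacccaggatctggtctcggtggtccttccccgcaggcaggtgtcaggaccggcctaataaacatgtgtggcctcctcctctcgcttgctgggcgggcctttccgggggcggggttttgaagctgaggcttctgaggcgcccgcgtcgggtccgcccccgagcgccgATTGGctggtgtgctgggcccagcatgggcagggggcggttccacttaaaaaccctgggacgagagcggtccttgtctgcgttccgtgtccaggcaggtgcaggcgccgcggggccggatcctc
ERG28 (chr14:75660827-75661126, - strand): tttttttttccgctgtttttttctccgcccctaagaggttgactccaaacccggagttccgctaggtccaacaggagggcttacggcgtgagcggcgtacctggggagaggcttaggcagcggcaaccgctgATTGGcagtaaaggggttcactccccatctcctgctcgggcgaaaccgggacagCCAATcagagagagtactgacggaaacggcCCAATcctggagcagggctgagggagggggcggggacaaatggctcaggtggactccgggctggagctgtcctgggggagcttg
EBP (chrX:48521558-48521857, + strand): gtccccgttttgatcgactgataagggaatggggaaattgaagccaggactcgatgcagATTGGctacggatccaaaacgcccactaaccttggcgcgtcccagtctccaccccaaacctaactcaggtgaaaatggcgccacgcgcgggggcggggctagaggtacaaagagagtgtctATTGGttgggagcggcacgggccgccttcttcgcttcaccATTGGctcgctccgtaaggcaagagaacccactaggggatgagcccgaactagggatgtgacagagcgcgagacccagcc
FDPS (chr1:155308616-155308915, + strand): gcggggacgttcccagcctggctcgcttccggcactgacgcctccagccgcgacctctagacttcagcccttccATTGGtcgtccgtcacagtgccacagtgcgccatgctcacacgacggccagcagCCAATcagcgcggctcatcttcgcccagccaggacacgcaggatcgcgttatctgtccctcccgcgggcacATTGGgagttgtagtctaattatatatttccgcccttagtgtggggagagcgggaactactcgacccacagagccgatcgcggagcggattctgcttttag
LSS (chr21:46228725-46229024, - strand): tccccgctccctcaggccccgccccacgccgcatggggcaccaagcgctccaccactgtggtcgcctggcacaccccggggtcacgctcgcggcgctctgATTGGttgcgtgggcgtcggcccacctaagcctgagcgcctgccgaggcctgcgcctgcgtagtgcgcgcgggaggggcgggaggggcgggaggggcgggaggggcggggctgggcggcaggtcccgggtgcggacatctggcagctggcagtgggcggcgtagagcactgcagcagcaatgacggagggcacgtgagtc

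TM7SF2 had 1 CCAAT match, with its first base 74 bases before the start, and LSS had 1, at 150 bases. ERG28, EBP and FDPS had 3 each, the nearest at 34, 30 and 51 bases before the start. CCAAT was in the windows of genes that stood higher and of genes that stood lower in the SREBF1-targeting libraries. All 4 genes whose SREBF1-targeting libraries lay above every control had it, and so did FDPS, LSS and DHCR7 among the 5 that lay below. CYB5R3 had no match, and SCARB1 was not searched.

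Across the pathway, the SREBF1-targeting libraries showed no common direction. There were 4 genes, all from the steps between lanosterol and cholesterol, that were higher in all 3 SREBF1-targeting libraries than in any control. They were led by the sterol reductase gene TM7SF2 at 1.62-fold. Another 5 genes were lower in all 3, led by the lipoprotein receptor gene SCARB1 at 0.774-fold and FDPS, which makes farnesyl diphosphate, at 0.793-fold. Of these 5, DHCR7 and CYB5R3 also belong to the steps between lanosterol and cholesterol. The remaining 21 genes overlapped between the sides, with log2 ratios from -0.32 to 0.22. The median log2 ratio of the 30 was -0.07, against 0.006 over the 15123 genes tested, with 13 genes above 0 and 17 below.

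Sides that did not overlap were found for 4 of the 30 genes with SREBF1-targeting higher (13.3%), against 8.86% of all genes tested, and for 5 with SREBF1-targeting lower (16.7%), against 8.54%. In edgeR's quasi-likelihood test of 3 SREBF1-targeting against 3 control libraries, none of the 30 passed an adjusted p of 0.05, against 0.0595% of all genes tested. The smallest was an adjusted p of 0.112 for TM7SF2. At an unadjusted p under 0.05 there were 12 of the 30 (40%), 4 higher and 8 lower, against 10.2% of all genes. The DESeq2 Wald test called 4, TM7SF2, SCARB1, FDPS and LSS, against 1.12% of all genes, and limma-voom called 0. Without the filter on low counts edgeR called 4, TM7SF2, SCARB1, FDPS and ERG28, against 1.62% of all genes, and without ASO-SREBF1-S1 it called 1, TM7SF2, against 0.673%. Without TMM scaling 5 of the 30 had separate sides with SREBF1-targeting higher, against 14.0% of all genes tested, and 3 with SREBF1-targeting lower, against 5.11%. Fewer libraries make separation easier to meet. Without ASO-SREBF1-S1 there were 8 higher and 11 lower, against 17.1% and 16.1% of all genes, and without ASO-SREBF1-S4 8 and 8, against 14.0% and 13.5%. Without ASO-Neg there were 6 and 8, against 13.5% and 14.8%, and without mock 4 and 8, against 11.8% and 12.6%. Without siSREBF1 there were 4 and 6, against 14.8% and 14.0%, and without siNegative 4 and 7, against 11.7% and 12.3%. Because each side mixes 3 treatments with 1 library each, its p-values reflect only how far these 6 libraries scatter, and no repeat of any treatment is among them.

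**Figure D1:**
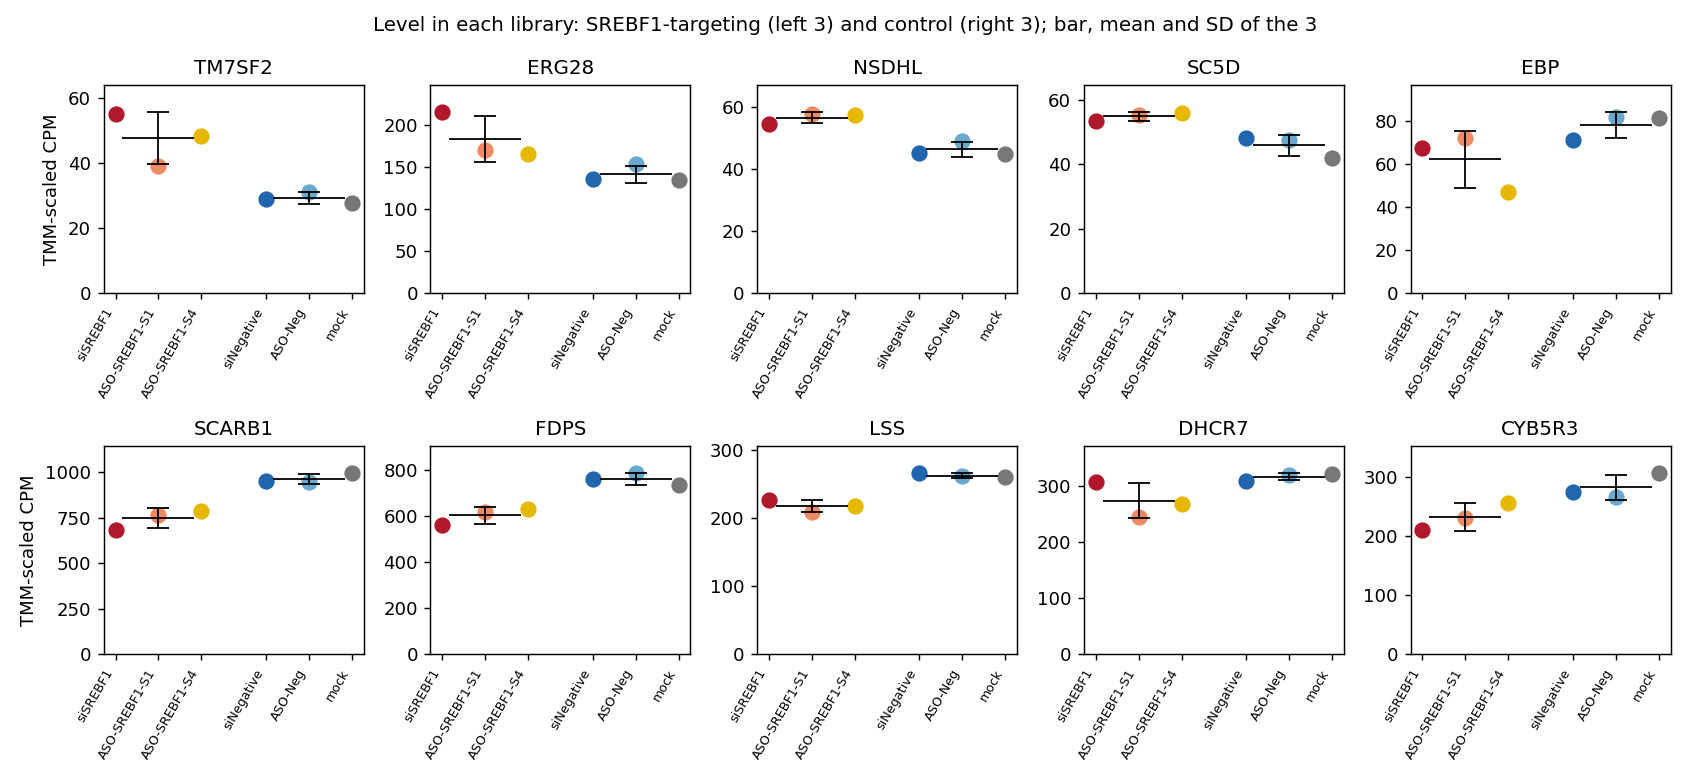
TMM-scaled CPM (y axis, from 0) of 10 genes in each library (x axis): the 3 SREBF1-targeting libraries stand left of the 3 control libraries, and the horizontal line with whiskers is the mean and SD of the 3. TM7SF2, ERG28, NSDHL and SC5D have SREBF1-targeting points above every control; EBP is low in ASO-SREBF1-S4, at 47.1 CPM; the lower row has SREBF1-targeting points below every control.

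The early mevalonate steps mostly overlapped between the sides. The 8 genes from acetyl-CoA to the prenyl diphosphates had a median log2 ratio of -0.10, with 0 above and 1 below every control. FDPS (ENSG00000160752, chr1:155308748-155320666 on GRCh38, as are the coordinates that follow) stood at 564, 620 and 631 CPM in siSREBF1, ASO-SREBF1-S1 and ASO-SREBF1-S4, against 764, 789 and 736 CPM in siNegative, ASO-Neg and mock. All 3 SREBF1-targeting libraries were below the lowest control, the mock (log2 ratio -0.33, SE 0.075, edgeR adjusted p = 0.2). FDPS had the highest level per transcript length of the 30, at 427 ± 25.6 CPM per kilobase in SREBF1-targeting and 538 ± 18.8 in control libraries (SD, n = 3 each). HMGCS1, which condenses acetyl-CoA with acetoacetyl-CoA, stood at 1181, 1335 and 1673 CPM in siSREBF1, ASO-SREBF1-S1 and ASO-SREBF1-S4, against 1537, 1580 and 1447 CPM in siNegative, ASO-Neg and mock. Its sides overlapped, since ASO-SREBF1-S4 was the highest of the 6 libraries and siSREBF1 the lowest (log2 ratio -0.12, SE 0.12, edgeR adjusted p = 0.772). IDI1, the isomerase that makes the second prenyl building block, stood at 249, 354 and 343 CPM in siSREBF1, ASO-SREBF1-S1 and ASO-SREBF1-S4, against 346, 354 and 347 CPM in siNegative, ASO-Neg and mock. The siSREBF1 library was the low one, and the other 5 lay within 343 to 354 CPM. ACAT2, the cytosolic thiolase, stood at 301, 315 and 266 CPM in siSREBF1, ASO-SREBF1-S1 and ASO-SREBF1-S4, against 249, 279 and 264 CPM in siNegative, ASO-Neg and mock, and its sides overlapped. MVD, the mevalonate diphosphate decarboxylase, was at 124, 141 and 125 CPM in the SREBF1-targeting libraries against 154, 136 and 165 CPM in siNegative, ASO-Neg and mock (log2 ratio -0.22, edgeR adjusted p = 0.429), with ASO-SREBF1-S1 above ASO-Neg. The kinases MVK and PMVK and the synthase GGPS1 overlapped, with log2 ratios of -0.08, 0.009 and -0.07. GGPS1 shares 1422 exon bases on its strand with another listed gene, and reads in shared bases name neither gene.

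Of the 3 genes from farnesyl diphosphate to lanosterol, LSS stood lower and the other two overlapped. LSS, the cyclase that closes lanosterol (ENSG00000160285, chr21:46188141-46228824), stood at 226, 208 and 218 CPM in siSREBF1, ASO-SREBF1-S1 and ASO-SREBF1-S4, against 266, 261 and 260 CPM in siNegative, ASO-Neg and mock. The sides were apart and the 3 controls averaged 262 ± 3.48 CPM with SD over 3 libraries (log2 ratio -0.27, SE 0.065, edgeR adjusted p = 0.223). FDFT1, the squalene synthase, was among the 5 highest per length and stood at 501, 468 and 489 CPM in siSREBF1, ASO-SREBF1-S1 and ASO-SREBF1-S4, against 463, 476 and 480 CPM in siNegative, ASO-Neg and mock. SQLE, the squalene monooxygenase, stood at 242, 230 and 274 CPM in siSREBF1, ASO-SREBF1-S1 and ASO-SREBF1-S4, against 229, 244 and 232 CPM in siNegative, ASO-Neg and mock. Both overlapped, with log2 ratios of 0.04 and 0.08.

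The 11 genes from lanosterol to cholesterol held the widest range, from -0.32 to 0.69 on the log2 scale with a median of 0.11, with 4 genes above and 2 below every control. TM7SF2 (ENSG00000149809, chr11:65111845-65116384), which encodes a sterol reductase of the step after the demethylase, stood at 55.1, 39.2 and 48.4 CPM in siSREBF1, ASO-SREBF1-S1 and ASO-SREBF1-S4, against 28.9, 31.1 and 27.7 CPM in siNegative, ASO-Neg and mock. The siSREBF1 library was highest, and the lowest SREBF1-targeting library, ASO-SREBF1-S1, was above the highest control (log2 ratio 0.69, SE 0.12, edgeR adjusted p = 0.112). LBR, which carries the same reductase activity on a protein of the inner nuclear membrane, stood at 85.9, 96.7 and 85.3 CPM in siSREBF1, ASO-SREBF1-S1 and ASO-SREBF1-S4, against 103, 109 and 94.2 CPM in siNegative, ASO-Neg and mock. Its sides overlapped at ASO-SREBF1-S1 and mock (log2 ratio -0.19, edgeR adjusted p = 0.472). The difference between the 2 reductase genes was not tested.

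Removal of the methyl groups uses MSMO1, NSDHL and HSD17B7, whose yeast counterparts are held together by that of ERG28. ERG28 (ENSG00000133935, chr14:75649791-75660876) stood at 216, 171 and 166 CPM in siSREBF1, ASO-SREBF1-S1 and ASO-SREBF1-S4, against 137, 154 and 136 CPM in siNegative, ASO-Neg and mock. The siSREBF1 library stood highest, and both ASO libraries were above every control (log2 ratio 0.38, SE 0.11, edgeR adjusted p = 0.292). NSDHL (ENSG00000147383, chrX:152830967-152869729) stood at 54.6, 58.0 and 57.4 CPM in siSREBF1, ASO-SREBF1-S1 and ASO-SREBF1-S4, against 45.2, 49.1 and 45.0 CPM in siNegative, ASO-Neg and mock. The 3 reagents gave near-equal NSDHL levels, at 56.7 ± 1.8 CPM on average (SD, n = 3). The log2 ratio was 0.29 with an SE of 0.07 (edgeR adjusted p = 0.23). MSMO1 was at 272, 223 and 254 CPM in siSREBF1, ASO-SREBF1-S1 and ASO-SREBF1-S4, against 217, 238 and 207 CPM in siNegative, ASO-Neg and mock, and overlapped. HSD17B7 also overlapped, with a log2 ratio of 0.11. Its pseudogenes held 7.68% of the counts of gene and pseudogenes together, so its level is uncertain.

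SC5D, the desaturase of the next to last steps (ENSG00000109929, chr11:121292681-121313410), stood at 53.4, 55.2 and 55.9 CPM in siSREBF1, ASO-SREBF1-S1 and ASO-SREBF1-S4, against 48.0, 47.4 and 42.1 CPM in siNegative, ASO-Neg and mock. The sides were apart, with mock the lowest library (log2 ratio 0.26, SE 0.075, edgeR adjusted p = 0.295). DHCR7, which reduces 7-dehydrocholesterol (ENSG00000172893, chr11:71428193-71452868), stood at 307, 245 and 268 CPM in siSREBF1, ASO-SREBF1-S1 and ASO-SREBF1-S4, against 308, 319 and 321 CPM in siNegative, ASO-Neg and mock. Its siSREBF1 library lay just under siNegative, and both ASO libraries lay well below (log2 ratio -0.21, SE 0.089, edgeR adjusted p = 0.458). CYB5R3, a reductase that feeds electrons to cytochrome b5 (ENSG00000100243, chr22:42615730-42720870), stood at 210, 230 and 256 CPM in siSREBF1, ASO-SREBF1-S1 and ASO-SREBF1-S4, against 274, 266 and 307 CPM in siNegative, ASO-Neg and mock (log2 ratio -0.28, SE 0.091, edgeR adjusted p = 0.339). Its sides were apart, with ASO-SREBF1-S4 closest to the controls. EBP, the sterol isomerase (ENSG00000147155, chrX:48521799-48528716), stood at 67.3, 72.0 and 47.1 CPM in siSREBF1, ASO-SREBF1-S1 and ASO-SREBF1-S4, against 71.3, 81.9 and 81.1 CPM in siNegative, ASO-Neg and mock. ASO-SREBF1-S4 was the low library, and ASO-SREBF1-S1 lay above siNegative (log2 ratio -0.32, SE 0.14, edgeR adjusted p = 0.486). Without ASO-SREBF1-S4 the log2 ratio was -0.16. CYP51A1, the lanosterol demethylase, was the lowest per length, at 2.95 ± 0.348 CPM per kilobase in SREBF1-targeting and 3.5 ± 0.422 in control libraries (SD, n = 3 each). It shares 2844 exon bases on its strand with another gene that is listed at 0 in every library, and shared reads name neither, and its pseudogenes held 7.14% of the counts of gene and pseudogenes together, so its level is uncertain. It overlapped (log2 ratio -0.23, edgeR adjusted p = 0.621).

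Among the 8 uptake and transport genes, SCARB1 stood apart and the other 7 overlapped, with a median log2 ratio of -0.05. SCARB1, a receptor for high-density lipoprotein that passes its cholesteryl esters into the cell (ENSG00000073060, chr12:124776856-124882668), stood at 684, 767 and 788 CPM in siSREBF1, ASO-SREBF1-S1 and ASO-SREBF1-S4, against 954, 944 and 996 CPM in siNegative, ASO-Neg and mock. Every SREBF1-targeting library was below every control, with siSREBF1 the lowest (log2 ratio -0.37, SE 0.079, edgeR adjusted p = 0.184). Per length, SCARB1 was at 219 ± 16.2 CPM per kilobase in SREBF1-targeting and 283 ± 8.08 in control libraries (SD, n = 3 each), level with HMGCS1 in the controls, at 284 ± 12.7. NPC1, which releases cholesterol from lysosomes, stood at 452, 390 and 348 CPM in siSREBF1, ASO-SREBF1-S1 and ASO-SREBF1-S4, against 331, 366 and 388 CPM in siNegative, ASO-Neg and mock. Its sides overlapped, with siSREBF1 and siNegative at the ends of the range (log2 ratio 0.13, edgeR adjusted p = 0.706). NPC2, the soluble partner of NPC1, had a log2 ratio of -0.09. TMEM97, which binds NPC1, was at 263, 254 and 197 CPM in siSREBF1, ASO-SREBF1-S1 and ASO-SREBF1-S4, against 202, 215 and 193 CPM in siNegative, ASO-Neg and mock, and ASO-SREBF1-S4 lay among the controls (log2 ratio 0.22, edgeR adjusted p = 0.529). SOAT1, which esterifies cholesterol for storage, had a log2 ratio of 0.10. The carriers STARD4, STARD3 and OSBP, which move sterol between membranes, had log2 ratios of -0.13, -0.14 and -0.009.

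**Figure D2:**
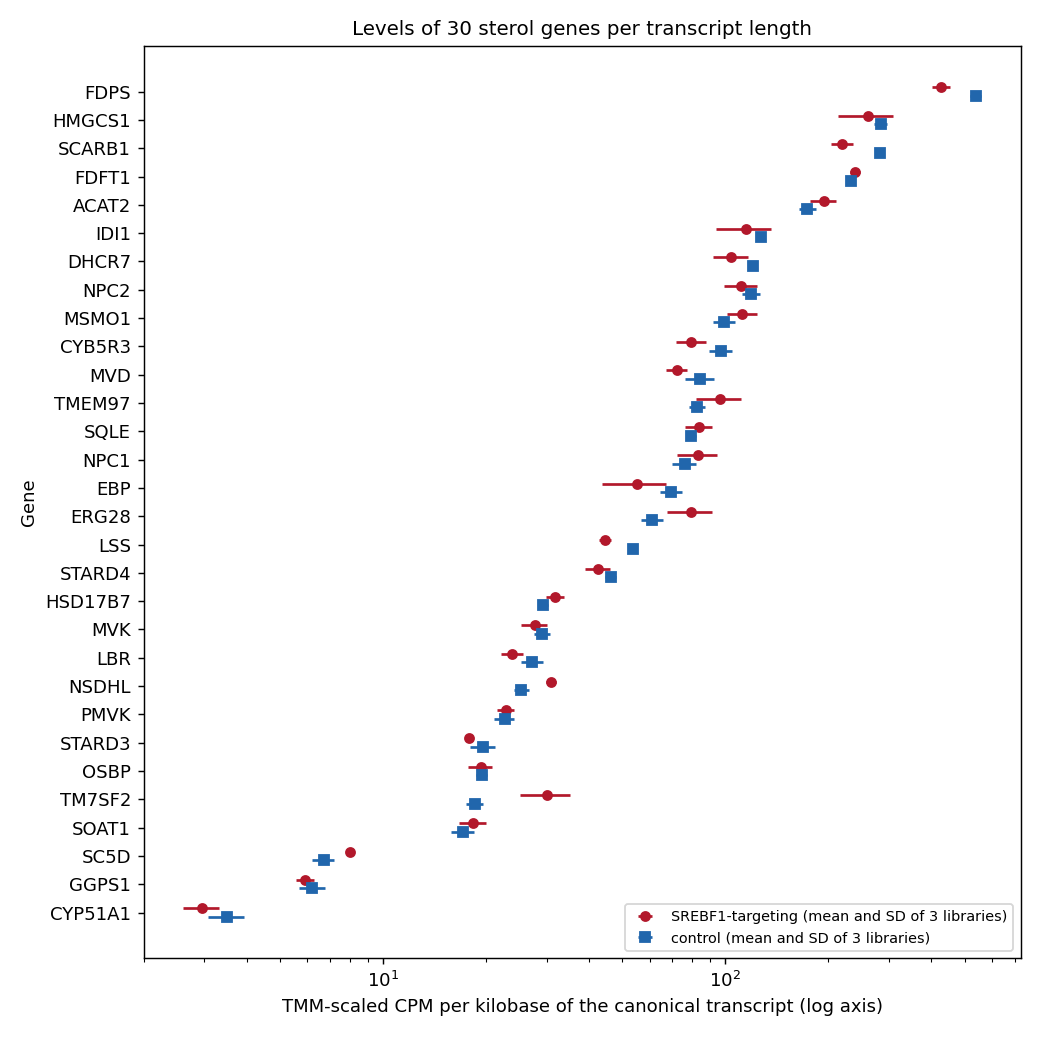
TMM-scaled CPM per kilobase of the canonical transcript (x axis, log scale) for the 30 genes (y axis, ordered by control level); red circles are SREBF1-targeting and blue squares control libraries, mean and SD of 3 each. FDPS is highest, at 427 and 538, CYP51A1 lowest, at 2.95 and 3.5, and TM7SF2 is the pair set widest apart, at 30.1 and 18.5.

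Set against its own non-targeting reagent, each SREBF1 reagent gave at most 2 sterol genes past a size rule of 0.5 on the log2 scale with at least 10 CPM in 1 of the 2 libraries. These are single libraries with no replicate check, and intervals cover counting error only. In siSREBF1 over siNegative, 2 of 30 genes were higher past the rule, TM7SF2 (log2 ratio 0.93, 95% counting interval 0.77 to 1.09) and ERG28 (0.66, 0.58 to 0.74), against 1.77% of all genes. None was lower, against 2.11%. Below the rule, SCARB1 (-0.48), IDI1 (-0.48) and FDPS (-0.44) were the lowest and NPC1 (0.45), TMEM97 (0.38) and MSMO1 (0.33) followed the 2 highest. In ASO-SREBF1-S1 over ASO-Neg, 0 of 30 were higher, against 1.28% of all genes, and 0 lower, against 2.23%. The range ran from DHCR7 (-0.38) through FDPS (-0.35) and LSS (-0.33) to TM7SF2 (0.33). In ASO-SREBF1-S4 over ASO-Neg, 1 of 29 genes with 10 CPM was higher, TM7SF2 (0.64, 0.48 to 0.80), against 3.07% of all genes. EBP was the 1 lower (-0.80, -0.93 to -0.67), against 2.29%. The 2 ASO contrasts share ASO-Neg. At a size rule of 0.25 in either direction, 16 of 30 genes passed in siSREBF1 over siNegative, against 19.8% of all genes. The counts were 6 of 30 in ASO-SREBF1-S1 over ASO-Neg, against 17.4%, and 7 of 29 in ASO-SREBF1-S4 over ASO-Neg, against 23.4%.

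The non-targeting reagents gave the size of differences between libraries not aimed at SREBF1. In siNegative over mock, 0 of 30 genes passed the size rule, against 0.816% of all genes, and log2 ratios ran from -0.23 (NPC1) to 0.19 (SC5D). In ASO-Neg over mock, 0 of 30 passed, against 1.18% of all genes, and the range was -0.33 (CYP51A1) to 0.21 (LBR). The SD of the log2 ratios over the sterol genes was 0.35 for siSREBF1 over siNegative, 0.20 for ASO-SREBF1-S1 over ASO-Neg and 0.25 for ASO-SREBF1-S4 over ASO-Neg. It was 0.11 for siNegative over mock and 0.15 for ASO-Neg over mock. Over all genes with 10 CPM the SDs in the same order were 0.235, 0.226, 0.26, 0.148 and 0.171.

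**Figure D3:**
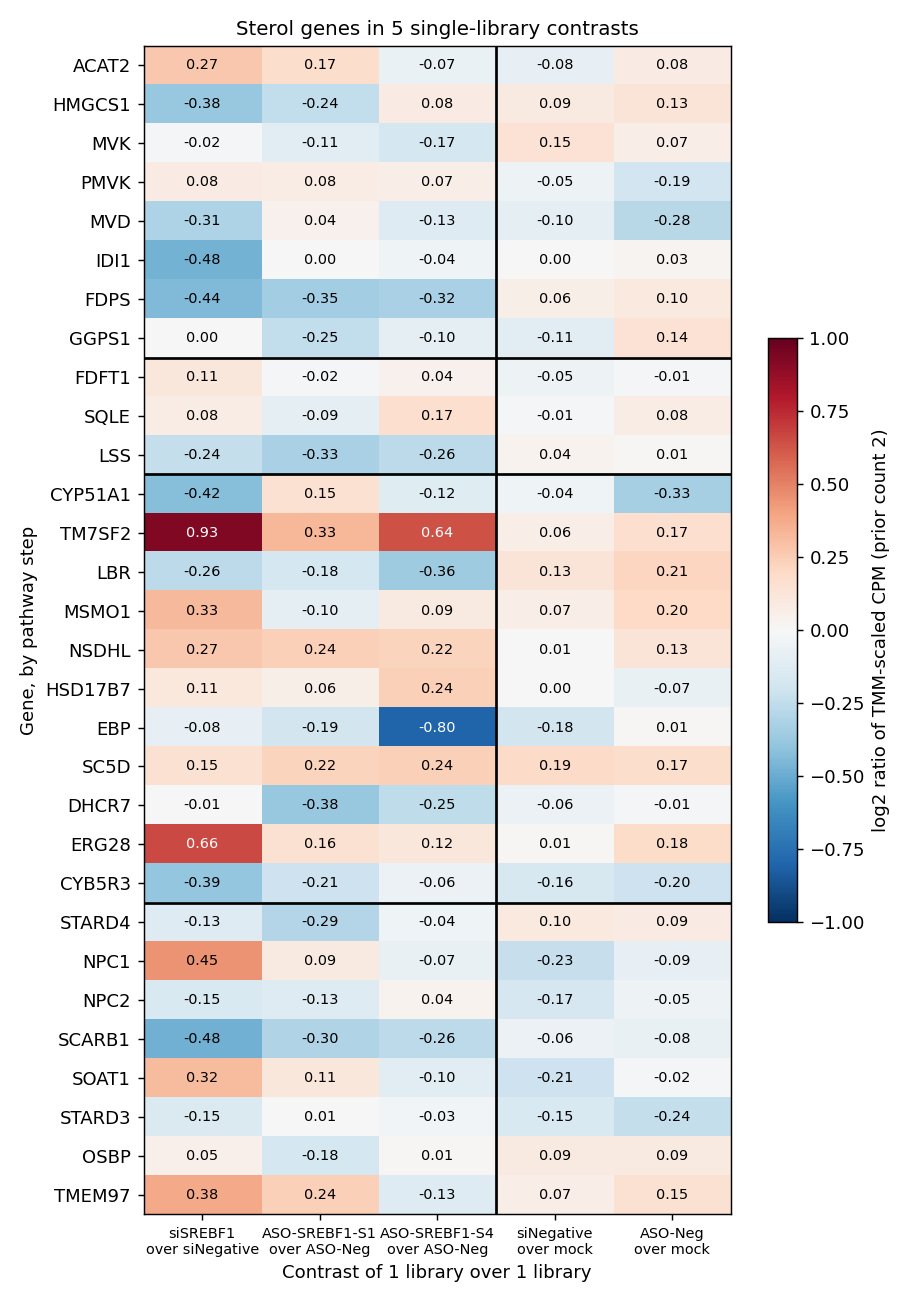
Log2 ratios of TMM-scaled CPM (colour and number) for the 30 genes (rows, from acetyl-CoA at the top to transport at the bottom, with lines between steps) in 5 contrasts of 1 library over 1 library (columns). The TM7SF2 row is red in the 3 SREBF1 columns, at 0.93, 0.33 and 0.64, EBP is deepest blue under ASO-SREBF1-S4, at -0.80, and the 2 columns over mock at the right run from -0.33 (CYP51A1, ASO-Neg) to 0.21 (LBR, ASO-Neg).

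Between siSREBF1 and the ASO pair, the sterol genes set furthest apart were IDI1, ERG28 and HMGCS1. The siRNA arm was 1 library, assumed to vary like the others, so the p-values that follow hold no replicate of it, and a p that misses the threshold does not show that the reagents act alike. In edgeR's contrast of siSREBF1 against the ASO pair, 0 of 30 had an adjusted p under 0.05, against 0.147% of all 16297 genes. At an unadjusted p under 0.05 there were 6 of 30, against 8.71% of all genes, and the 6 are named after their values were seen. IDI1 was lower in siSREBF1 than in the ASO pair (249 CPM against 354 and 343; log2 ratio -0.49, SE 0.099, edgeR adjusted p = 0.152), and so was HMGCS1 (-0.35, edgeR adjusted p = 0.561). ERG28 (log2 ratio 0.35, SE 0.11, edgeR adjusted p = 0.364), TM7SF2 (0.34), NPC1 (0.29) and DHCR7 (0.26) were higher in siSREBF1. SREBF1 itself had a log2 ratio of -0.43 in this contrast (edgeR adjusted p = 0.324). Dose also differed, at 50 nM for siRNA and 5 nM for ASO. The contrast called 3 of the 30 with ASO-SREBF1-S1 left out, against 2.46% of all genes, and 2 with ASO-SREBF1-S4 left out, against 5.51%; each then set 1 library against 1, with the spread taken from the controls.

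Genes of the fatty acid synthesis list were mostly lower in the SREBF1-targeting libraries. This list also held ACSL1 and ACSL3, which activate fatty acids, and ME1, which supplies NADPH, and each of them lay below every control. Of 15 genes tested on this list, 0 were above every control, against 8.86% of all genes tested, and 12 below (80.0%), against 8.54%. The median log2 ratio was -0.38, and 2 of the 15 passed over all genes. These were SCD, the stearoyl-CoA desaturase, which fell by 0.90 in log2 units (edgeR adjusted p = 0.0224), and ACSL1, a long-chain acyl-CoA synthetase, which fell by 0.63 (edgeR adjusted p = 0.0442). Neither passed with chemistry as a term or without siNegative, ASO-Neg or mock, and ACSL1 also did not pass without siSREBF1 or by limma-voom. Their edgeR adjusted p under these settings ran up to 0.491 for SCD and 0.513 for ACSL1. Against the same shares of all genes, the other lists gave the counts that follow. Of 7 SREBP genes and genes that control SREBP, 0 were above and 3 below every control (42.9%), with a median of -0.14. The 3 were SREBF1, SREBF2 and INSIG1. SREBF1 alone passed, and as the target of the reagents it was low by design. Of 11 genes of the isoprenoid side branches that draw on farnesyl diphosphate, 0 were above and 0 below every control, and their median was 0.03. Of 21 other sterol transport, storage and uptake genes, 2 were above (9.52%) and 6 below every control (28.6%), with a median of -0.06 and none past the threshold. Of 6 efflux and oxysterol genes, 1 was above (16.7%) and 2 below (33.3%), with a median of -0.17. The 1 above was the cholesterol exporter ABCA1, at 21.4, 19.6 and 19.9 CPM in siSREBF1, ASO-SREBF1-S1 and ASO-SREBF1-S4, against 11.1, 12.6 and 7.52 CPM in siNegative, ASO-Neg and mock (log2 ratio 0.95, SE 0.16, edgeR adjusted p = 0.101). No test compared the lists.

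**Figure D4:**
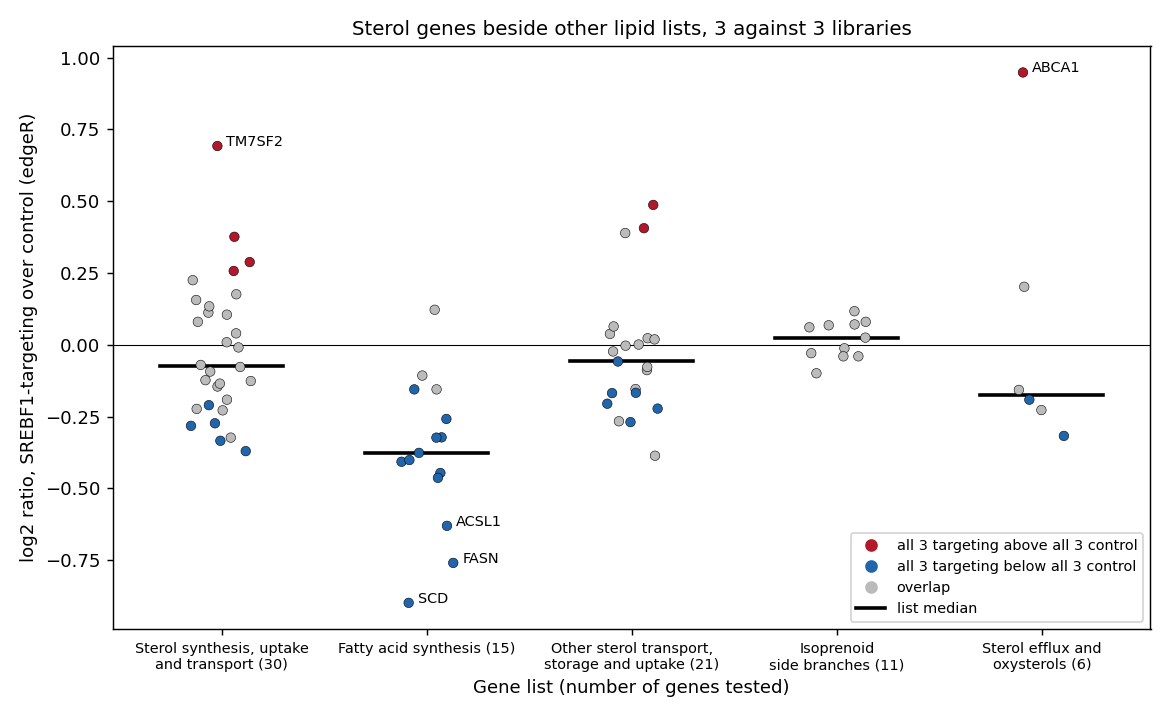
Log2 ratio of SREBF1-targeting over control libraries from edgeR (y axis) for each gene tested in 5 lists (x axis); red points have all 3 SREBF1-targeting libraries above all controls, blue all 3 below, grey overlap, and the bar is the list median. The sterol genes lie on both sides of 0 with a median of -0.07, and the 15 genes of the fatty acid synthesis list have a median of -0.38.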

How the data were processed

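Each deposited file held unnormalized counts of reads over genes for 1 lane, with an unstranded column and 1 column per strand. Per the submitters' processing notes, the authors used FastQC and STAR 2.6.1a with GRCh38; the annotation is not given in the sources used here. The last column was used, since the other strand held 6.47% to 7.79% of the counts of both. Of all read pairs, 80.65% to 81.82% named a gene in a library; the rest stayed out of library sizes. Lanes of 1 library differed by about sampling noise (chi-square per degree of freedom 1.0 to 1.07, against 1.97 to 8.76 between libraries) and were summed and counted as 1 sample, so each of 6 groups was 1 library. A count of 3 was worth 0.0626 to 0.232 CPM; intervals cover counting error only. Names, coordinates and canonical transcript lengths came from GENCODE release 44, which matched 58207 of 58735 identifiers with 99.93% of counts. Promoter windows came from RefSeq. edgeR 4.0.16 in R 4.3.3 was used with TMM, filterByExpr, the 2-sided quasi-likelihood F test and Benjamini-Hochberg adjustment over all genes at 0.05. A standard error is the log2 ratio over the square root of F. Fits were also run on simulated counts, with the same dispersion for every gene and equal changes across the changed libraries. That setting does not show how the fits do with reagents that differ. Contrasts of 1 library over 1 library used a prior count of 2 and exact 95% counting intervals, with no p-value. DESeq2 1.42.0, limma 3.58.1, other scalings, filters, the unstranded column and left-out libraries were alternatives. The genes and lists were chosen with earlier results of these data known. Genes with values in every library were those with separate sides, past the size rule, or among the 5 highest per length; MVD, IDI1, MSMO1, LBR, NPC1, TMEM97 and SQLE were added after their values were seen.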

Additional observations from a re-analysis of the deposited data

How the results depend on the processing

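No paired analysis was possible because the replicate numbers name sequencing lanes of 1 library, which were summed. Of 341 values of the 30 sterol genes and SREBF1 recomputed over 11 settings in the comparison of 3 against 3 libraries, 327 kept their direction and side of the threshold, 9 passed only in the alternative and 1 only in the main comparison. The 4 that turned were near 0 and came from leaving out a library: PMVK ran from -0.046 to 0.042 (-0.037 without siSREBF1) and OSBP from -0.05 to 0.059 (0.006 without ASO-Neg). Genes called over all genes in that comparison numbered 9, with 509 without a filter on low counts, 170 by DESeq2, 5 by limma-voom and 0 with chemistry as a term, where SREBF1 kept its direction (log2 ratio -1.82) but did not pass (edgeR adjusted p = 0.112); leaving out each library in turn gave 1 to 103. Sterol genes called numbered 0, with 4 without the filter (TM7SF2, SCARB1, FDPS and ERG28), 4 by DESeq2, and 0 to 1 with a library left out. In siSREBF1 against the ASO pair, 24 genes were called, with 380 without the filter and 2 to 890 with a library left out. The count was 395 without ASO-SREBF1-S1 and 890 without ASO-SREBF1-S4, where the spread comes from the controls alone. Sterol genes called were 0, with 1 without the filter and 0 to 3 with a library left out. Sterol genes with separate sides numbered 4 higher (4 to 8 with a library left out) and 5 lower (6 to 11 with a library left out, and 3 without TMM scaling). The shares of all genes tested were 8.86% higher and 8.54% lower. With a library left out these shares rose to between 11.7% and 17.1% higher and between 12.3% and 16.1% lower. Without TMM scaling 5.11% of all genes were lower. At a size rule of 0.25 the counts were 16, 6, 7, 0 and 2 for siSREBF1, ASO-SREBF1-S1, ASO-SREBF1-S4, siNegative and ASO-Neg over their comparators, against 19.8%, 17.4%, 23.4%, 8.35% and 11.6% of all genes, and at a size rule of 1 they were 0 in each. Leaving out any 1 lane of every library, another prior count, RLE scaling or the unstranded column moved none of these counts at the rule of 0.5. The cause of the other changes was not tested. The 1 library per group limits what any test here can call.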

Other observations

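Further sterol genes, named after their values were seen, had separate sides. INSIG1, which holds SREBP precursors in the endoplasmic reticulum, stood at 298, 380 and 398 CPM in siSREBF1, ASO-SREBF1-S1 and ASO-SREBF1-S4, against 591, 584 and 532 CPM in siNegative, ASO-Neg and mock (log2 ratio -0.66, SE 0.11, edgeR adjusted p = 0.0919). OSBPL3, of the oxysterol-binding protein family, stood at 65.6, 64.0 and 65.7 CPM in siSREBF1, ASO-SREBF1-S1 and ASO-SREBF1-S4, against 51.0, 48.9 and 47.4 CPM in siNegative, ASO-Neg and mock (log2 ratio 0.41, SE 0.065, edgeR adjusted p = 0.0872). GRAMD1B, which carries cholesterol from the plasma membrane to the endoplasmic reticulum, stood at 11.6, 13.5 and 12.6 CPM in siSREBF1, ASO-SREBF1-S1 and ASO-SREBF1-S4, against 9.96, 7.94 and 9.09 CPM in siNegative, ASO-Neg and mock (log2 ratio 0.49, SE 0.13, edgeR adjusted p = 0.248). None passed the threshold over all genes.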
